A study of Mus musculus with 16 samples.

Results

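Cytokine receptors decide which survival and activation signals a memory CD8+ T cell can read. The 9 genes described here encode such receptor chains, and all 9 were among the 9223 genes of the table: Il7r, Il2ra, Il2rb, Il2rg, Il21r, Il18r1, Il18rap, Ifngr1 and Il10ra. They were taken by name. Expression was measured by single-cell RNA sequencing of Pmel T cells, CD8+ cells that carry the congenic marker Thy1.1 and a transgenic receptor for the melanocyte antigen gp100. The cells came from the skin (1224 cells), lung (2322), liver (556) and draining lymph node (1625) of C57BL/6 mice aged 16 weeks, on day 45 after removal of a melanoma. The mice of all 4 tissues had melanoma-associated vitiligo, so there were no cells from mice free of it. The labels do not say how many mice gave the cells, and each tissue is 1 library. There are therefore no replicates and no tests between tissues. Levels are CPM, a gene's count scaled to a tissue total of 1000000. Intervals are exact 95% intervals, and they reflect counting error alone. The labels do not say whether a count is a read or a unique molecule, and for reads the intervals would be too narrow for molecules. As in any pooled value, fewer positive cells and less RNA per cell enter a level alike.

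As background, the IL-7 receptor joins the chain encoded by Il7r to the common gamma chain encoded by Il2rg, and its signal through JAK1, JAK3 and STAT5 maintains naive and memory T cells. IL-2 and IL-15 share the beta chain encoded by Il2rb and the same gamma chain, while Il2ra adds the alpha chain that gives high affinity for IL-2. The IL-21 receptor also pairs with the gamma chain. Il18r1 and Il18rap encode the binding and accessory chains for IL-18, which signal through MYD88 rather than through JAK kinases. Ifngr1 and Il10ra encode the ligand-binding chains for interferon gamma and for IL-10, and each needs a partner, IFNGR2 or IL10RB.

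The libraries differed in ways that touch every comparison below. Summed counts ran from 1928185 in liver to 8072278 in lung, and the median counts per cell from 2518 in skin to 3096 in liver. Each cell was therefore thinned to 1886 counts before shares of cells were computed, which left 1083 skin, 2049 lung, 529 liver and 1494 lymph node cells. The 14 genes named as pseudogenes by the ending -ps summed to 7766 CPM in skin, 2149 in the lung, 2102 in liver and 7074 in lymph node. Lung and liver thus stood apart from skin and lymph node, whose cell names carry a 2 after the tissue that the other names lack, and the part of this split in the results was not tested. All 6 T cell markers (Cd3e, Cd3d, Cd8a, Cd8b1, Thy1 and Trac) were present, with summed levels of 7241 CPM in skin, 6370 in the lung, 6905 in liver and 7842 in lymph node. Of 36 genes of other cell classes 11 were in the table. Their highest shares of cells at equal depth were 4.16% in skin (Perp), 5.37% in lung (Lyz2), 2.08% in liver (Scgb1a1) and 2.21% in lymph node (Pecam1), and a receptor share at or below these is not read as expression. Across libraries 19 barcodes occurred more than once.

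Il7r had its lowest level in skin and its highest in lymph node, and of the 9 members it had the widest range between tissues. Its level was 72.9 CPM in skin (64.0 to 82.7), 125 in lung (117 to 133), 146 in liver (129 to 164) and 443 in lymph node (424 to 463). Against lymph node it was 6.08-fold lower in skin (5.31 to 6.98), 3.56-fold lower in lung (3.29 to 3.84) and 3.04-fold lower in liver (2.68 to 3.46). No peripheral interval overlapped that of the node. Among the peripheral tissues, skin was 1.71-fold below lung (1.48 to 1.98) and 1.999-fold below liver (1.68 to 2.38), and lung was 1.17-fold below liver with an interval (1.02 to 1.34) that came close to equality.

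The share of cells with Il7r followed the same order. At equal depth skin had 12.1% (10.2 to 14.2), lung 22.4% (20.6 to 24.3), liver 25.5% (21.9 to 29.5) and lymph node 53.3% (50.7 to 55.8). Before thinning the shares were 16.4% of skin, 32.0% of lung, 36.0% of liver and 64.4% of lymph node cells. The number of counts per positive cell went the same way. Among cells with the gene, 15.9% of skin, 26.6% of lung, 30.0% of liver and 51.9% of lymph node cells held more than 1 count. The node thus had both a larger share of positive cells and more of them with several counts, the last measured without thinning. A higher mean count raises both, so they are not separate findings.

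Il7r lies on chromosome 15 from 9505788 to 9530176 on the minus strand of GRCm38 (GENCODE M21), and no annotated gene overlaps it. The sequence before its RefSeq start is shown because this gene differed most from lymph node to skin, and those of Il18r1 and Il18rap because they are neighbouring genes for the 2 chains of 1 receptor. Each covers the 250 bases before an annotated start in GRCm38.p6, from RefSeq, written 5′ to 3′ on the strand of the gene. Capitals mark matches on either strand to ACTTCC, the core bound by ETS factors, or to TTCNNNGAA, the spaced palindrome bound by STAT factors.
Il7r, chr15:9529877-9530126, minus strand: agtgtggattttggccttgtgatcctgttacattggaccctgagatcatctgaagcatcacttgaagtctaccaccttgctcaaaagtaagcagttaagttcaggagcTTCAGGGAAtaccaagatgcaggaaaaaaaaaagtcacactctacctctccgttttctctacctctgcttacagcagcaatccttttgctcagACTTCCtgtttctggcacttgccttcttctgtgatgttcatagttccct
Il18r1, chr1:40465302-40465551, plus strand: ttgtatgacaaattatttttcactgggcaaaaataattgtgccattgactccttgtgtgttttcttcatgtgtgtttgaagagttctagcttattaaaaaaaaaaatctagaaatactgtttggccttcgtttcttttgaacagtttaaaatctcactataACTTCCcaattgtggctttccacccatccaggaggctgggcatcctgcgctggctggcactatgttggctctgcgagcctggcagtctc
Il18rap, chr1:40515112-40515361, plus strand: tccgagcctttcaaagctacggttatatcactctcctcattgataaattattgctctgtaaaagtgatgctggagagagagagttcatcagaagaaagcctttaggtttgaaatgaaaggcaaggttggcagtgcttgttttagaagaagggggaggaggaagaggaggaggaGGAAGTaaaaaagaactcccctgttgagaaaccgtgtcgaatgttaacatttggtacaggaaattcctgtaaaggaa

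The ETS core began 49 bases before the Il7r start, 89 before that of Il18r1 and 77 before that of Il18rap, and the STAT palindrome 142 bases before that of Il7r. Of 32851 windows of this length, 19.7% held ACTTCC and 7.02% held TTCNNNGAA on either strand. The RUNX core TGTGGT, the FOXO core GTAAACA and the AP-1 core TGANTCA, in 14.0%, 3.17% and 6.75% of all windows, had no match in the 3 shown. The ETS, RUNX, FOXO, STAT and AP-1 letters matched in 4, 2, 1, 2 and 0 of the 7 members with a window in the table. These counts are per gene over 9 windows, whereas the shares above are per window. For Il18r1 the STAT letters matched at another of its starts, not in the sequence shown. Il18r1 has other annotated starts, GENCODE also lists a transcript of Il7r that begins further upstream, and a match is a run of letters, not a site shown to be bound.

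**Figure D1:**
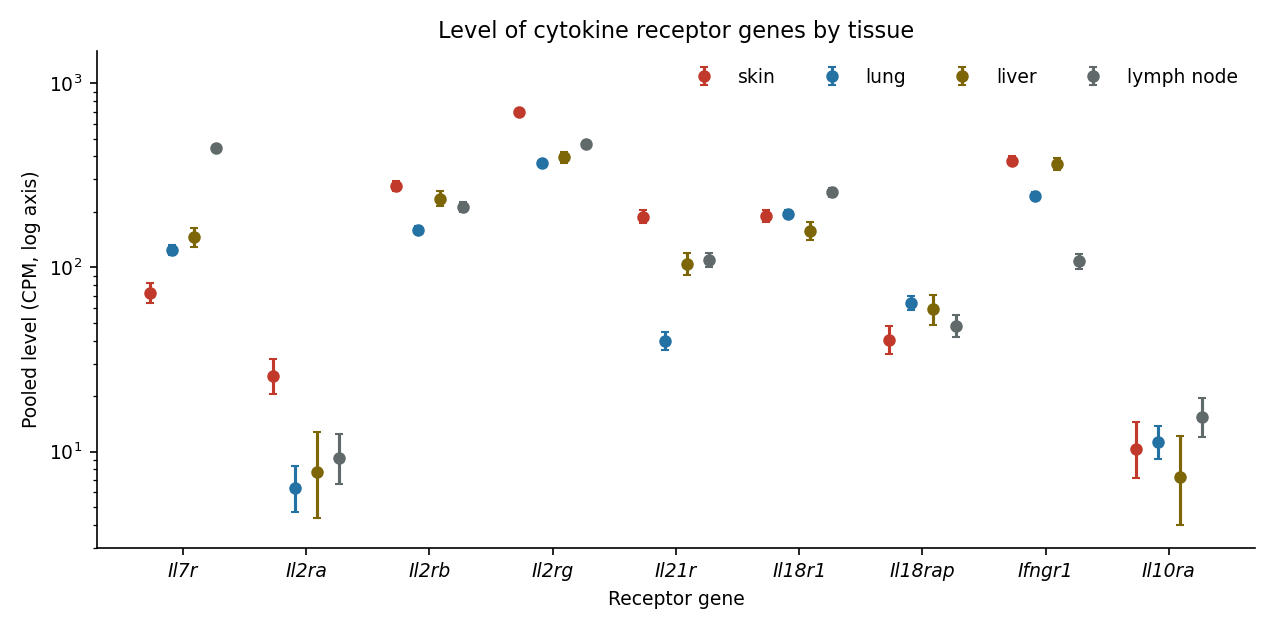
Pooled level of the 9 receptor genes (CPM, log axis) in skin, lung, liver and lymph node, with exact 95% counting intervals and 1 library per point. Il7r is highest in lymph node at 443 CPM, whereas Ifngr1 is lowest there at 108 CPM and Il21r is lowest in lung at 40.0 CPM.

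Il2rb and Il2rg, the signaling chains for IL-2 and IL-15, varied much less and in another order. The level of Il2rb was 277 CPM in skin (260 to 296), 160 in lung (151 to 169), 236 in liver (215 to 259) and 213 in lymph node (200 to 227). Skin was 1.30-fold above lymph node (1.19 to 1.42) and lung 1.34-fold below it (1.23 to 1.45), while liver over lymph node was 1.11 with an interval (0.989 to 1.24) that held equality. With size factors from the median of ratios both calls changed, to 0.987 in lung (0.908 to 1.07) and 1.496 in liver (1.34 to 1.67). At equal depth 39.5% of skin, 23.4% of lung, 35.0% of liver and 32.3% of lymph node cells had a count, and without thinning liver (52.5%) stood above skin (47.2%). Skin and lymph node were thus in reverse order for Il2rb and Il7r.

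Il2rg, the gamma chain that the receptors for IL-2, IL-7, IL-15 and IL-21 share, stood at 694 CPM in skin (666 to 723), 368 in lung (355 to 382), 395 in liver (368 to 424) and 465 in lymph node (445 to 485). Skin was 1.49-fold above lymph node (1.41 to 1.58). Lung was 1.26-fold and liver 1.18-fold below it, but with size factors these 2 ratios were 1.05 (0.988 to 1.11) and 1.15 (1.05 to 1.25), above equality. Lung and liver differed by a ratio of 0.932 with an interval (0.860 to 1.01) that held equality, and with size factors by 0.911 (0.841 to 0.988). Counts were found in 71.0% of skin, 49.9% of lung, 50.3% of liver and 55.4% of lymph node cells. Il2rg lies on chromosome X from 101264378 to 101268255, where Gm20489, not listed in the table, overlaps it on the same strand.

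Il2ra, the high-affinity alpha chain and a classic activation marker, was sparse. It had 85 counts in skin, 51 in the lung, 15 in liver and 42 in lymph node, or 25.8, 6.32, 7.78 and 9.27 CPM. The level in skin was 2.79-fold that of lymph node (1.90 to 4.13), 4.09-fold that of lung (2.85 to 5.90) and 3.32-fold that of liver (1.90 to 6.19). Its shares at equal depth were 3.69% of skin, 1.02% of lung, 0.756% of liver and 1.47% of lymph node cells. All lay below the highest share of another cell class in the same tissue, so none is read as above background. In skin this reading rests on Perp alone, whose share of 4.16% lay inside the Il2ra interval (2.65 to 4.996). The second gene in skin had 2.03%, below that interval. In lung, liver and lymph node the Il2ra share also lay below the second gene, at 2.39%, 1.89% and 2.07%. Before thinning, 11 of the 64 skin cells with Il2ra held more than 1 count, with up to 8 in 1 cell. In lung, liver and lymph node no cell held more than 2. The share of cells does not show whether a few skin cells express the gene.

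Il21r, the receptor for a cytokine that supports CD8+ T cell persistence, was high in skin and low in lung. It stood at 188 CPM in skin (174 to 204), 40.0 in lung (35.8 to 44.6), 104 in liver (90.3 to 120) and 110 in lymph node (100.2 to 120). Skin was 1.72-fold above lymph node (1.52 to 1.94), and lung was 2.74-fold below it (2.38 to 3.16). Lung was also 2.61-fold below liver (2.17 to 3.12). Liver over lymph node was 0.951 with an interval (0.803 to 1.12) that held equality, but 1.28 with size factors (1.08 to 1.51). Among cells at equal depth 27.1% in skin, 7.13% in the lung, 17.6% in liver and 18.9% in lymph node had a count, the same order as the levels.

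The 2 chains of the IL-18 receptor ordered the tissues differently. Their genes are neighbours on chromosome 1, with Il18rap starting 14508 bases after the end of Il18r1. Il18r1 stood at 190 CPM in skin (175 to 205), 194 in lung (185 to 204), 158 in liver (141 to 177) and 256 in lymph node (241 to 271). It was lower than in lymph node by 1.35-fold in skin (1.22 to 1.49), 1.32-fold in lung (1.22 to 1.42) and 1.62-fold in liver (1.43 to 1.84), but with size factors the lung ratio was 1.003, just over equality. Skin over lung was 0.977 (0.889 to 1.07), and 0.847 with size factors (0.771 to 0.9301). Its shares were 28.9% of skin, 32.0% of lung, 27.0% of liver and 36.3% of lymph node cells.

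Il18rap, the accessory chain without which IL-18 does not signal, was instead higher in lung than in lymph node. Its levels were 40.4 CPM in skin (33.8 to 47.9), 63.9 in lung (58.5 to 69.7), 59.1 in liver (48.8 to 71.0) and 48.1 in lymph node (41.9 to 54.9). Lung was 1.33-fold above lymph node (1.13 to 1.56), liver 1.23-fold above it with an interval (0.971 to 1.55) that held equality only without size factors (1.66, 1.31 to 2.09), and skin over lymph node was 0.840 (0.672 to 1.05). It was counted in 6.74% of skin, 10.6% of lung, 11.2% of liver and 7.43% of lymph node cells. The ratio of Il18rap to Il18r1 counts was 0.213 in skin (0.175 to 0.257), 0.329 in lung (0.297 to 0.363), 0.374 in liver (0.299 to 0.465) and 0.188 in lymph node (0.162 to 0.217). That split put lung and liver above skin and lymph node without overlap of intervals. The pseudogene level and the circulating effector markers divided the libraries into the same pairs, and these cannot be told apart here.

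Ifngr1, the ligand-binding chain for interferon gamma, was lower in lymph node than in each peripheral tissue, where Il7r was higher in the node. It stood at 379 CPM in skin (358 to 400.4), 245 in lung (234 to 256), 364 in liver (338 to 392.03) and 108 in lymph node (98.3 to 118). Against lymph node it was 3.52-fold higher in skin (3.17 to 3.91), 2.28-fold higher in lung (2.06 to 2.52) and 3.38-fold higher in liver (3.01 to 3.80). Skin over liver was 1.04 (0.948 to 1.14), and 0.883 with size factors (0.804 to 0.970), and both lay above lung. The shares were 45.9% of skin, 33.5% of lung, 50.5% of liver and 18.7% of lymph node cells. Ifngr2, the partner chain, had 4 counts in skin, 13 in the lung, 5 in liver and 3 in lymph node, too few to compare tissues.

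Il10ra, the ligand-binding chain for IL-10, was sparse in every tissue, with 34 counts in skin, 91 in the lung, 14 in liver and 70 in lymph node. The levels were 10.3 CPM in skin, 11.3 in the lung, 7.26 in liver and 15.4 in lymph node. Only liver differed from lymph node beyond counting error, by 2.13-fold lower (1.19 to 4.09), and with size factors that ratio was 0.635 with an interval (0.330 to 1.14) that held equality. In skin, lung and liver its shares of 2.40%, 2.10% and 1.32% lay below the highest share of another cell class, and in lymph node the share of 3.28% (2.44 to 4.31) lay above it. Il10rb, the partner chain, stood at 94.2 CPM in skin, 49.7 in the lung, 49.3 in liver and 100.4 in lymph node.

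**Figure D2:**
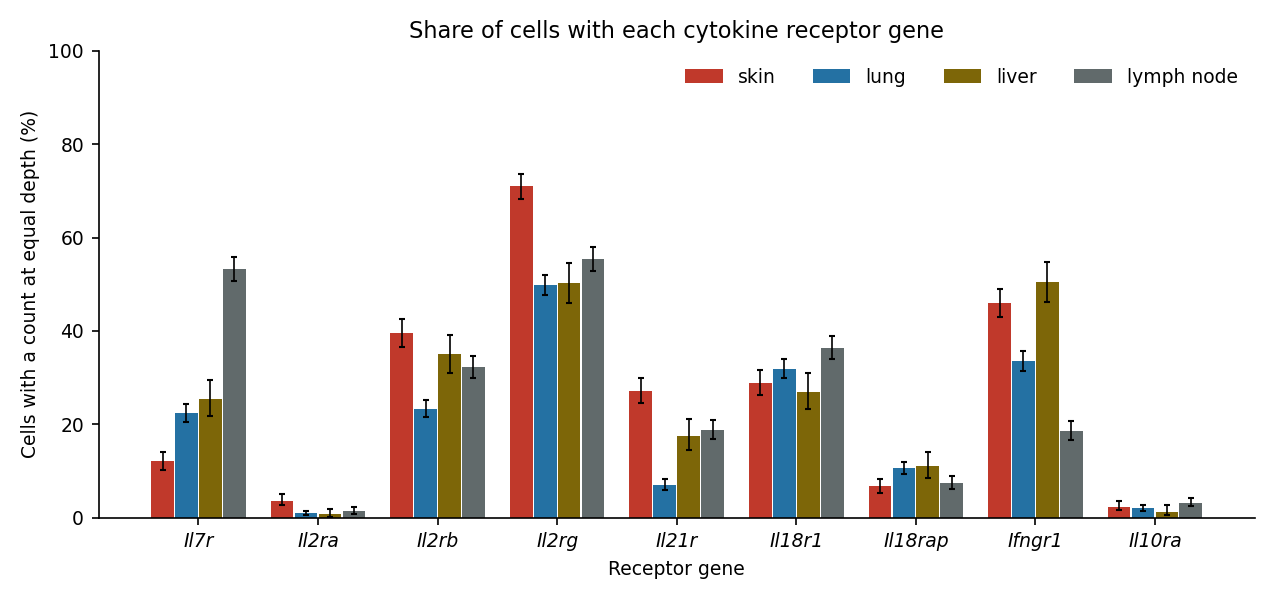
Share of cells with at least 1 count of each receptor gene after thinning every cell to 1886 counts, in skin, lung, liver and lymph node, with Clopper-Pearson 95% intervals. The Il7r bar is lowest in skin at 12.1% and highest in lymph node at 53.3%, and those of Il2ra reach at most 3.69%.

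In skin over lymph node, 2 of the 9 members were at least 2-fold higher and 1 at least 2-fold lower, beside 5.59% and 10.3% of 8961 genes, or 15.9% either way. In lung over lymph node 1 was higher and 2 were lower, beside 3.58% and 18.3% of 9047 genes, or 21.9% either way. In liver over lymph node 1 was higher and 2 were lower, beside 3.92% and 22% of 8895 genes, or 26% either way. Skin over lung had 2 members higher and 0 lower, beside 15.7% and 6.37% of genes (22.1% either way). Skin over liver had 1 and 0, beside 16.4% and 5.07% (21.5% either way), and lung over liver 0 and 1, beside 3.46% and 2.56% (6.02% either way). Either way, 3 of the 9 members were at least 2-fold apart in each comparison with lymph node. Counts this small are not read as a result about the members. The comparisons with lymph node share its cells. The members' median log2 ratio was 0.38 in skin, -0.42 in lung and -0.24 in liver over lymph node, beside -0.20, -0.41 and -0.45 for all genes. Size factors shifted every log2 ratio of these comparisons by 0.20, 0.40 and 0.43.

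**Figure D3:**
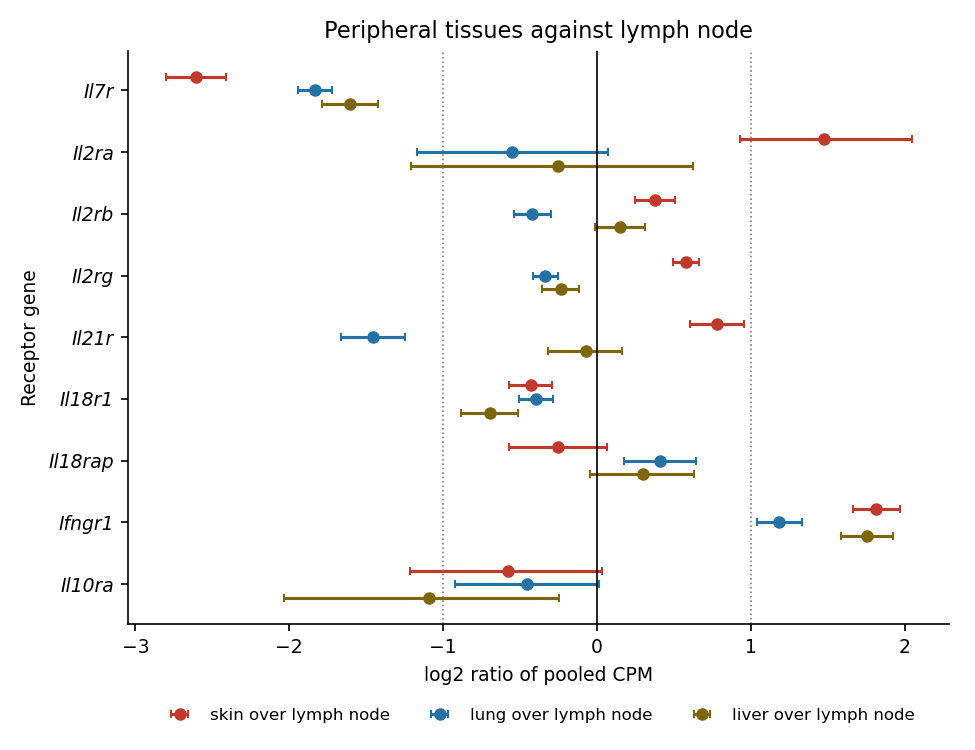
Log2 ratio of the pooled CPM in skin, lung and liver over lymph node for the 9 receptor genes, with exact 95% counting intervals; dotted lines mark a 2-fold difference. Il7r lies left of -1 and Ifngr1 right of 1 in all 3 comparisons, which share the lymph node cells, and Il21r splits skin from lung.

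The balance between receptors within a tissue shifted with these levels. A ratio of 2 genes' counts is compared only between tissues, where gene length does not enter. For each count of Il2rb there were 0.263 counts of Il7r in skin (0.227 to 0.303), 0.781 in lung (0.719 to 0.849), 0.616 in liver (0.529 to 0.717) and 2.08 in lymph node (1.92 to 2.24). Lymph node had the highest ratio and skin the lowest, and no intervals overlapped. The ratio of Il18r1 to Il7r, with Il7r now the denominator, was highest in skin and lowest in lymph node. It was 2.60 in skin, 1.56 in the lung, 1.09 in liver and 0.578 in lymph node, so lung lay above liver in both ratios. Relative to Il2rb, Il18r1 divided the tissues in pairs, at 0.685 in skin and 0.669 in liver, against 1.22 in lung and 1.20 in lymph node.

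Per count of the gamma chain Il2rg there were 0.105 counts of Il7r in skin, 0.338 in the lung, 0.369 in liver and 0.953 in lymph node. Il2rb had a narrower range, at 0.399 in skin, 0.433 in the lung, 0.598 in liver and 0.459 in lymph node. The 9 members together summed to 1878 CPM in skin (1832 to 1925), 1213 in lung (1190 to 1238), 1478 in liver (1424 to 1533) and 1668 in lymph node (1630 to 1706). Of those counts Il7r made up 3.88% in skin, 10.3% in the lung, 9.86% in liver and 26.6% in lymph node. Ifngr1 made up 20.2% in skin, 20.2% in the lung, 24.6% in liver and 6.46% in lymph node, the reverse of the Il7r order between the node and the other tissues.

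Within cells at equal depth, the combinations of Il7r, Il2rb and Il18r1 differed by tissue. Il7r without the other 2 was found in 4.99% of skin cells (3.77 to 6.46), 11.8% of lung (10.4 to 13.3), 11.2% of liver (8.60 to 14.2) and 23.4% of lymph node cells (21.2 to 25.6). Il2rb without the other 2 was found in 24.6% of skin cells (22.02 to 27.2), 12.8% of lung, 18.1% of liver and 9.57% of lymph node cells. Il18r1 without the other 2 was found in 15.7% of skin, 19.1% of lung, 13.8% of liver and 10.5% of lymph node cells. Il7r alone was thus highest in lymph node and Il2rb alone in skin, each with an interval apart from those of the other tissues. Il18r1 alone was highest in lung (17.4 to 20.9), but its interval overlapped that of skin (13.6 to 18.003). A share of 1 gene alone also depends on how many cells hold the other 2. The share of all cells with Il18r1 was highest in lymph node, at 36.3%.

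All 3 genes were counted in 1.85% of skin, 1.66% of lung, 2.46% of liver and 6.56% of lymph node cells, and none of them in 38.0%, 40.1%, 35.9% and 20.6%. Among cells with any of the 3, Il7r was present in 19.5% in skin, 37.4% in the lung, 39.8% in liver and 67.1% in lymph node. A cell without a count at this depth may still express the gene.

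**Figure D4:**
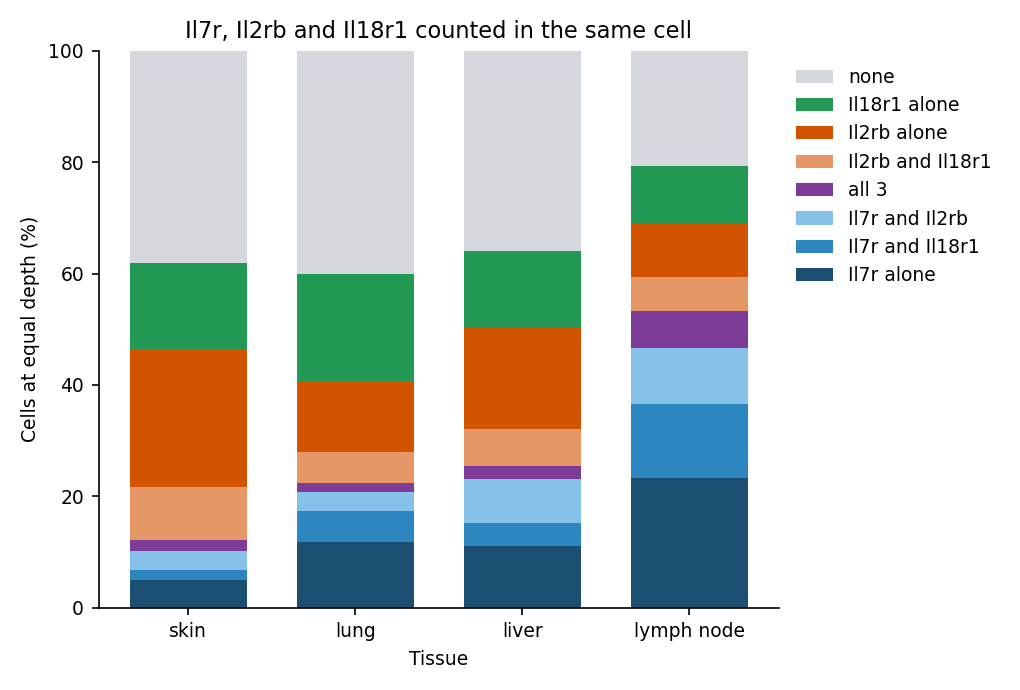
Share of cells at equal depth with each combination of Il7r, Il2rb and Il18r1 counts in skin, lung, liver and lymph node; the segments of a bar sum to all thinned cells of that tissue. The blue and purple segments, which hold Il7r, sum to 12.1% in skin and 53.3% in lymph node.

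Inside a tissue, in contrast, no pair of chains had intervals that lay apart for the shares with and without the partner. The share of cells with Il7r was 13.6% among cells with Il2rb and 11.1% among those without in skin, 21.3% and 22.7% in lung, 29.2% and 23.5% in liver, and 51.7% and 54.1% in lymph node. Il18r1 was counted in 26.0% of skin cells with Il18rap and 29.1% of those without, and in 39.6% and 36.1% of lymph node cells. Il7r and Il2rg, the chains of 1 receptor, gave 11.6% and 13.4% in skin and 52.6% and 54.1% in lymph node. The intervals overlapped in all 32 combinations of 8 gene pairs and 4 tissues, read in either direction. Leaving out pairs with Il2ra, the share with the partner over the share without it ran from 0.865 to 1.36, the highest for Il21r given Il2rg in skin. There Il21r was counted in 29.4% of cells with Il2rg (26.2 to 32.7) and 21.7% without (17.2 to 26.6), with a narrow overlap. Sparse counts blur such pairings, and overlap of intervals does not show that the chains are independent. Nor does overlap of separate intervals show that a difference lies within counting error.

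Clusters made from other genes, without the 9 members or the pathway genes below, showed how the receptors varied inside 1 library. Of the 1224 skin cells 1126 were in cluster 3, led by Nr4a1 with Fosb, Fos and Atf3 among its 10 leading genes. Clusters were therefore not compared in skin. Lymph node cells were mainly in cluster 2 (1279 cells, led by Lpar6), an interferon responding-like cluster 7 (144 cells, led by Ifit3) and a central memory-like cluster 8 (165 cells). Cluster 8 was led by Izumo1r and Tnfsf8 and had 3 of the 6 fixed central memory markers, Slamf6, Lef1 and Ccr7, among its 10 leading genes, along with Tox, a gene of the exhausted list. Cluster 8 had less Il7r than cluster 2, at 255 CPM (210 to 307) in cluster 8 and 486 (464 to 510) in cluster 2, a 1.91-fold difference (1.58 to 2.34). The 2 IL-18 receptor chains differed far more. Il18r1 stood at 41.3 CPM in cluster 8 and 285 in cluster 2, 6.89-fold lower (4.34 to 11.7), and Il18rap had 3 counts in cluster 8 and 189 in cluster 2, a ratio of 0.127 (0.0260 to 0.377).

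Il2rb was 1.63-fold lower in cluster 8 than in cluster 2 (1.25 to 2.15) and Ifngr1 2.17-fold lower (1.43 to 3.46). Il10ra was 2.85-fold higher (1.503 to 5.14), at 36.7 CPM in cluster 8 and 12.9 in cluster 2. The gamma chain Il2rg did not differ beyond counting error (0.934, 0.799 to 1.09). In all, 1 member was at least 2-fold higher and 3 were at least 2-fold lower in cluster 8 than in cluster 2, beside 17.9% of genes either way. The interferon responding-like cluster 7 had 0 members 2-fold apart from cluster 2 (12.4% of genes), with Il7r at 403 CPM.

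Lung cells were spread over cluster 1 (1250 cells, led by Fxyd4), cluster 4 (607 cells, led by Tspan32 with Gzma among its leading genes), cluster 6 (286 cells, led by Bcl2 and Trib3) and a cycling-like cluster 9 (89 cells, led by Ccnb2). Il7r was 78.7 CPM in cluster 4, 87.2 in cluster 6, 37.5 in cluster 9 and 191 in cluster 1. It was thus lower than in cluster 1 by 2.43-fold in cluster 4 (2.09 to 2.83), 2.19-fold in cluster 6 (1.63 to 3.00) and 5.09-fold in cluster 9 (3.39 to 8.002). The highest lung value remained below each lymph node value, the lowest of which was 255 CPM in the central memory-like cells.

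Ifngr1 reached 727 CPM in lung cluster 6 (657 to 801), 3.26-fold above cluster 1 (2.88 to 3.68) at 223 CPM, and this was its highest level in any of the 10 groups of cells of 1 tissue and 1 cluster. Il2rg was 1.74-fold lower in cluster 6 (1.46 to 2.09) and Il18rap 2.32-fold lower (1.42 to 4.05), whereas Il18r1 did not differ beyond counting error (1.03, 0.848 to 1.25). The median depth of cluster 6 was 1834 counts per cell, against 2683 in cluster 1, and only 123 of its 286 lung cells reached the thinning depth. Members at least 2-fold apart from cluster 1 numbered 1 in cluster 4 (6.11% of genes), 5 in cluster 6 (17.4%) and 1 in cluster 9 (18.4%). Of the 5 in cluster 6, Il2ra rested on 7 counts with an interval that held equality, and Il10ra on 1 count. In liver, cluster 5 (362 cells, led by Ctla4) had 448 CPM of Ifngr1 and cluster 1 had 237, a ratio of 1.89 (1.45 to 2.51), with 0 members 2-fold apart (11%).

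**Figure D5:**
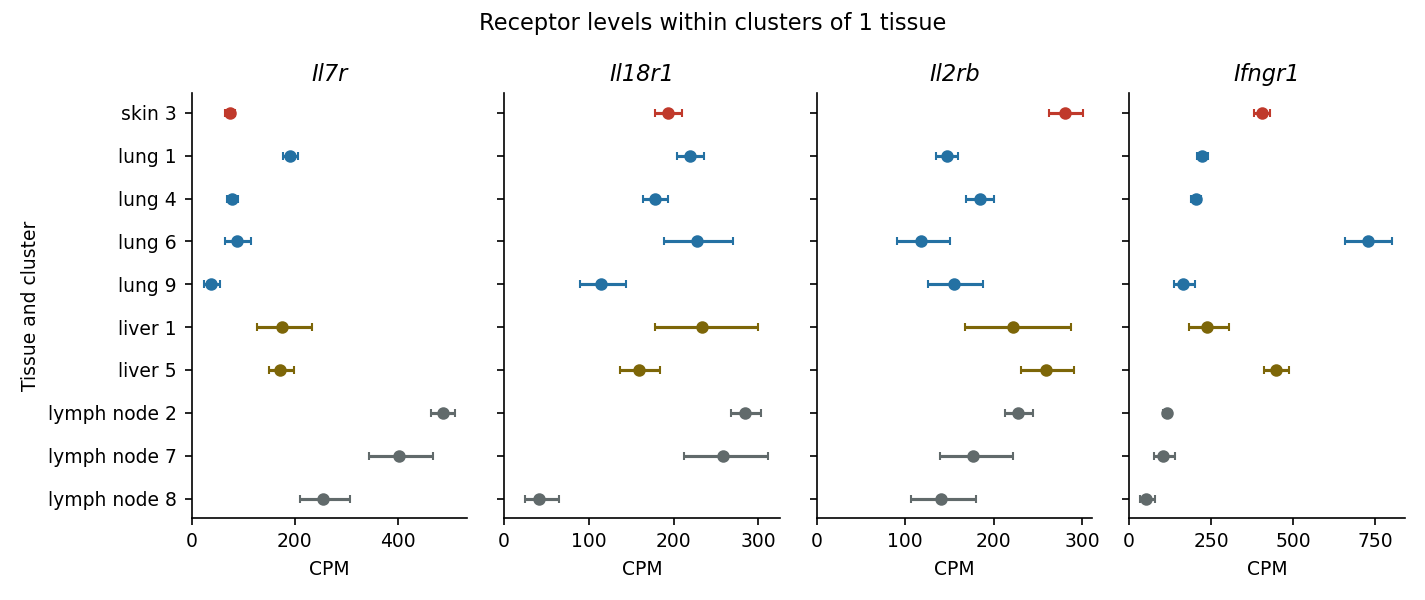
Pooled CPM of Il7r, Il18r1, Il2rb and Ifngr1 in the 10 groups of at least 50 cells of 1 tissue and 1 cluster, with exact 95% counting intervals; the number after the tissue is the cluster. Lymph node cluster 8 is low in Il18r1 at 41.3 CPM, and lung cluster 6 is high in Ifngr1 at 727 CPM.

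Cells were also split within each tissue by a count of 16 genes of cell state, and in 19 of 432 splits with at least 30 cells on each side the intervals of the 2 shares lay apart. The same count was not made for other genes, so it is not read as a result about the members. Il7r was counted in 21.6% of lung cells with Gzma, the gene of granzyme A, and in 31.0% of those without, and within lung cluster 1 the shares were 27.5% and 41.9%. It was found in 23.8% of lung cells with Klf2, a transcription factor of circulating cells, and 17.1% of those without. In lymph node the order was the reverse, with 44.7% of cells with Klf2 and 55.7% of those without. Within the largest cluster of each tissue both Klf2 intervals overlapped, at 29.0% and 26% in lung and 52.1% and 58.9% in lymph node.

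Cxcr6 encodes a chemokine receptor found on resident T cells. In lymph node, Il7r was counted in 55.0% of cells with Cxcr6 and 38.2% of the 157 cells without, Il2rb in 34.0% and 17.8%, and Il18r1 in 38.7% and 15.9%. Within cluster 2, where 40 cells lacked Cxcr6, those intervals overlapped, and for Il7r the order turned, at 57.6% with and 60% without. In skin, Il18r1 was counted in 27.1% of cells with Nr4a1, an immediate early gene, and 39.6% of those without, and in skin cluster 3 in 27.2% and 42.5%. Ifngr1 was counted in 47.4% of liver cells with Gzma and 65.6% of those without, and in liver cluster 5 in 54.6% and 79.3%. In lymph node it was counted in 30.5% of cells with Bcl2 and 17.8% of those without. Il2rg was found in 52.1% of lung cells with Klf2 and 41.8% of those without. Of the 19 splits, 17 kept their direction within the largest cluster and 5 kept their intervals apart. The cells of that cluster were among those from which the 19 were picked, in skin 1002 of the 1083 thinned cells. The repeat is therefore not separate evidence for the splits. No split of Il7r by Itgae or Cd69, the genes of the residency markers CD103 and CD69, had intervals apart.

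Over the 10 groups of cells, the genes whose log2(CPM + 10) followed Il7r most closely were Gpcpd1 (Pearson r 0.94), Mark2 (0.93), Hmha1 (0.92) and Ltb, the gene of lymphotoxin beta (0.92), among 3309 candidates. For Il18r1 they were Fam46a (0.97), Cxcr6 (0.97), Amica1 (0.95) and Sytl1 (0.95). For Il2rb they were Ppp1cc (0.89), Ifnar1, a chain of the type I interferon receptor (0.88), Spty2d1 (0.87) and Tbx21, the gene of the transcription factor T-bet (0.85). After centring within tissues r was 0.73 to 0.87 for the 4 genes of Il7r and 0.95 to 0.98 for those of Il18r1. For Il2rb it was 0.87, 0.75 and 0.70 for the first 3 and 0.55 for Tbx21. Groups of 1 tissue share a library, and these values describe 10 groups only. The genes were picked by r over these same groups, so the centred r is not separate evidence. Skin has 1 group and adds nothing to it. For Il18r1 the lymph node groups were far apart, at 41.3 CPM in cluster 8, 285 in cluster 2 and 258 in cluster 7.

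Genes that act downstream of or beside these receptors were counted from lists. The counts below stand beside 5.59% of all genes at least 2-fold higher and 10.3% lower in skin over lymph node, 3.58% and 18.3% in lung, and 3.92% and 22% in liver. Jak1, which serves all the JAK-dependent receptors here, stood at 192 CPM in skin, 198 in the lung, 191 in liver and 238 in lymph node. Its ratio over lymph node was 0.805 in skin (0.728 to 0.889), 0.829 in lung (0.767 to 0.896) and 0.802 in liver (0.711 to 0.904). On the log2 scale these are -0.31, -0.27 and -0.32, and the size factor shifts of 0.40 in lung and 0.43 in liver would turn the direction in those tissues.

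Among 17 counted genes of other receptors, 1 was higher and 1 lower by 2-fold in skin than in lymph node, 2 and 6 in lung (3.58% and 18.3% of all genes), and 2 and 4 in liver (3.92% and 22%). Il4ra, the IL-4 receptor chain that also pairs with the gamma chain, stood at 65.6 CPM in skin, 16.0 in the lung, 36.8 in liver and 33.3 in lymph node, an order of skin above lung like that of Il21r, its neighbour on the chromosome. Il15ra, which presents IL-15, was 2.29-fold lower in skin (1.47 to 3.67), at 8.20 CPM against 18.8 in lymph node. Il27ra was 3.03-fold lower in lung (2.57 to 3.59) and 3.37-fold lower in liver (2.50 to 4.63) than in lymph node. Il12rb2 was at least 2-fold higher in skin, lung and liver than in lymph node, and Il3ra in lung and liver. Il27ra stood at 59.8 CPM in skin, 28.2 in the lung, 25.4 in liver and 85.6 in lymph node. Il3ra stood at 14.3 CPM in skin, 34.4 in the lung, 35.8 in liver and 13.7 in lymph node. Both thus divided lung and liver from skin and lymph node, as the pseudogene level and the circulating effector markers did, whereas Il4ra did not. The part of that split in these values was not tested.

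Of 11 measured negative regulators, 1 was higher and 1 lower by 2-fold in each of skin, lung and liver against lymph node. Socs1, which restrains JAK kinases, stood at 234 CPM in skin, 72.8 in the lung, 145 in liver and 97.5 in lymph node. Cish, a target and brake of STAT5, stood at 192 CPM in skin, 65.0 in the lung, 113 in liver and 111 in lymph node, highest in skin and lowest in lung as for Il21r. Socs6 was the lower gene in all 3 comparisons, which share the lymph node cells.

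Of 9 STAT5 and survival targets, 2 were higher and 2 lower by 2-fold in skin than in lymph node, 0 and 1 in lung, and 0 and 3 in liver. Pim1, a kinase gene induced by cytokines, was 5.08-fold higher in skin (4.64 to 5.56), at 691 CPM against 136 in lymph node. Bcl2, the survival gene that IL-7 is known to sustain, stood at 21.3 CPM in skin, 47.9 in the lung, 21.8 in liver and 45.5 in lymph node. Lung over lymph node was 1.05 for Bcl2 (0.888 to 1.26), unlike Il7r, and cluster 6, led by Bcl2, held 12.3% of lung cells.

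The IL-18 signaling genes gave 0 higher and 1 lower of 8 in skin and in lung, and 1 and 1 in liver. Myd88, the adaptor, stood at 33.1 CPM in skin, 47.0 in the lung, 57.6 in liver and 41.7 in lymph node. Of 9 measured transcriptional regulators, 1 was higher and 1 lower by 2-fold in each comparison. Tbx21, which in mice drives Il2rb, was 3.22-fold higher in skin than in lymph node (2.79 to 3.73). Foxo1, a known activator of Il7r, stood at 39.2 CPM in skin, 24.2 in the lung, 53.9 in liver and 31.1 in lymph node, an order unlike that of Il7r.

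Of 12 ligand genes 5 were in the table, and 4 could be compared between skin and lymph node, 3 of them at least 2-fold higher in skin and 0 lower, beside 5.59% and 10.3% of all genes. In lung 2 were higher and 1 lower of 4, and in liver 1 and 1 of 3, with Il2 the lower gene in both. Il2 stood at 152 CPM in skin, 16.4 in the lung, 18.2 in liver and 53.6 in lymph node. Ifng, the ligand of the receptor that holds IFNGR1, stood at 2245 CPM in skin, 396 in the lung, 379 in liver and 171 in lymph node, so ligand and receptor gene were both lowest in the node. Il15 stood at 13.1 CPM in skin, 16.0 in the lung, 17.6 in liver and 13.0 in lymph node, with every interval against the node holding equality, and Il18 at 0.911 CPM in skin, 5.82 in the lung, 6.22 in liver and 1.32 in lymph node.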

How the data were processed

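Single-cell RNA sequencing was deposited as 1 table of whole-number counts per gene and cell. Per the submitters' processing notes, reads were handled with Bowtie and RSEM against mm10, with no versions given, and no filters of the authors are recorded there. The 16 samples carry lane-like endings, and the column names give only the tissue, so each tissue was 1 library. Pooled counts of a tissue, over its total, gave CPM. Ratios carry the exact 95% conditional binomial interval, levels the Poisson interval and shares the Clopper-Pearson interval, all for counting error only. Genes with 20 or more counts over both tissues entered the 2-fold counts, and a pathway gene at 0 was set at 3 counts. Shares were taken after thinning each cell to 1886 counts, the 10th percentile, which left out 572 cells. Cells were filtered no further, since the highest mitochondrial share was 4.99%. Scrublet marked 62 cells (1.08%) as doublets, which were kept and left out in an alternative. Its share in lung was 0.431% and in lymph node 0.492%, so few doublets were found there. Clusters used scanpy 1.11.5 for normalization, 2000 variable genes and 30 components, then a graph of 15 neighbors cut by Leiden clustering (resolution 0.6), with the members and pathway genes left out. Interval coverage was tested on counts simulated from a Poisson model, which leaves out variation between cells and between libraries. The named genes were the 9 members, the pathway lists, the state genes, and the 4 genes most correlated with each of Il7r, Il2rb and Il18r1 among genes of at least 50 CPM in any group. The members and lists were chosen with earlier results of these data known. The repeat of the state splits within clusters and the ratios between clusters were added after the data were examined. The summary of the JAK and STAT list is not reported here.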

Additional observations from a re-analysis of the deposited data

How the results depend on the processing

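Ratios between tissues and counts of members were recomputed under 8 alternatives, balances under 6 and shares under 2. Splits by state, gene pairs, clusters and pathway lists were not recomputed under these. No ratio with lymph node moved Il7r across equality or out of a 2-fold difference. With size factors from the median of ratios the Il7r ratio over lymph node was 0.188 in skin, 0.371 in lung and 0.444 in liver, without cycling cells 0.316 in lung and 0.374 in liver, and as a mean of per-cell CPM 0.324 in lung and 0.396 in liver. The ratio of Il7r to Il2rb counts became 0.915 in lung without cycling cells, and 0.988 in lung and 0.754 in liver as a mean per cell. The count of members at least 2-fold apart between skin and liver was 2 in place of 1 under every alternative except cells of at least the thinning depth, because the Il7r ratio of 0.5002 lay at the threshold. Size factors turned 4 ratios past equality, Il2rg (1.05) and Il18r1 (1.003) in lung over lymph node, Il2rg (1.15) in liver over lymph node and Il2rb (0.995) in skin over liver. In all, size factors changed whether the interval held equality for 12 of 54 ratios, 6 in each direction, and the count of members in liver over lymph node was 2 in place of 3 with size factors, without cycling cells and as a mean of per-cell CPM. Of 432 recomputed ratios 387 stayed within their counting interval. No paired analysis was possible because the columns carry no replicate number, and no replicate could be left out for the same reason. Of 72 recomputed shares 67 moved, as depth sets the share, and the order of tissues held for 6 of 9 genes with thinning to fewer counts and 3 of 9 without thinning. Depth limits Il2ra, Il10ra and Ifngr2, and the interval held equality for 3 of 6 pairs of tissues for Il2ra and 5 of 6 for Il10ra.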
